A study of Homo sapiens with 6 samples.

Results

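Genes of the fetal liver that are often active again in liver cancer were followed through RNA sequencing of Hep3B cells, a human hepatocellular carcinoma line. These oncofetal genes were GPC3, H19, DLK1, PEG10, IGF2BP1, IGF2BP2, IGF2BP3, LIN28B and SALL4, chosen by name, and all 9 were found among the 57773 genes of the expression table, 8 of them among the 11123 genes with a mean of at least 1 FPKM. FPKM is a read number scaled by gene length and by the size of the library, so levels of different genes can be set side by side. The cells had been transfected with a control siRNA (si-Cont, 3 libraries) or with siRNA against SMARCA4 (si-SMARCA4, 3 libraries), and the comparison asks how transcripts differ when SMARCA4 is depleted. SMARCA4, also called BRG1, is an ATPase motor of the SWI/SNF complexes, which move and eject nucleosomes. Both groups are the same cell line and both were transfected. No label used here gives the siRNA sequences, the dose, the time of harvest or whether replicates were separate cultures. The p-values therefore speak for the spread among the 6 libraries, which may be technical.

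Oncofetal genes are expressed in the embryo, fall silent in the adult liver and are switched on again in a share of liver tumours. Several of them form one regulatory circuit. LIN28B binds the precursors of the let-7 microRNAs and blocks their maturation, and let-7 in turn represses LIN28B, the IGF2BP genes and other growth genes of the embryo. The IGF2BP proteins bind mRNAs, those of IGF2 and MYC among them, and govern their stability and translation. H19, PEG10 and DLK1 are imprinted, that is, expressed mainly from the maternal (H19) or the paternal (PEG10, DLK1) chromosome. GPC3 is a heparan sulfate proteoglycan at the cell surface and a diagnostic marker of hepatocellular carcinoma, and SALL4 is a zinc finger transcription factor of stem cells.

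SMARCA4 stood at 15.7, 19.5 and 16.6 FPKM in si-Cont and at 3.80, 3.78 and 4.01 FPKM in si-SMARCA4, or 22.3% of the si-Cont mean. Its groups did not overlap (log2 fold change -1.91, SE 0.07, limma adjusted p = 1.63e-08). Each library had 19084308 to 22719014 reads over genes. On the second principal component, which held 8.58% of the variance, si-Cont replicate 2 lay at 10.96 and the other 5 libraries between -5.70 and 1.83, so results that rest on this library are given with and without it. All 12 hepatocyte identity genes passed the filter, with 3 called higher and 5 lower (median log2 fold change -0.11), and albumin (ALB) stood at 2269 and 1425 FPKM. The shares over all genes tested were 22.4% higher and 33.6% lower. Of the markers of other cell types, the immune set had 8 of 10 genes under 1 FPKM throughout, with CD163, NKG7 and MS4A1 at 0. The endothelial set had all 8 under 1 FPKM, with CDH5, VWF, KDR and CLEC4G at 0. Summed levels ran from 30.7 to 36.6 FPKM in si-Cont and from 26.4 to 27.2 FPKM in si-SMARCA4 for the immune markers (0 higher and 1 lower of 2 tested, CD68). They ran from 0.754 to 0.868 and from 0.813 to 0.914 FPKM for the endothelial ones (0 tested). Fibroblast and stellate markers summed to 9.93 to 10.9 and 13.7 to 14.1 FPKM, with 8 of 10 genes under 1 FPKM, none at 0 in every library, and of 2 tested LUM higher and PDGFRA lower. The PDGFRA call was lost without any 1 of the libraries other than si-Cont replicate 2 (limma adjusted p from 0.078 to 0.125). Cholangiocyte markers summed to 156 to 168 and 136 to 144 FPKM, with 3 of 8 genes under 1 FPKM, none at 0 in every library, and 0 higher and 3 lower of 5 tested. Part of these sums moved with the groups, and whether that bears on the oncofetal genes was not tested.

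In si-SMARCA4 the oncofetal genes did not move as one group. PEG10 fell to 33.4% of its si-Cont level and GPC3 to 67.7%, with smaller falls of IGF2BP3 and H19, while LIN28B rose 1.72-fold and SALL4 1.18-fold. IGF2BP1 and IGF2BP2 did not pass the test, and DLK1 lay under the expression filter. Thus 2 of the 8 tested genes were called higher and 4 lower by limma at an adjusted p of 0.05, beside 22.4% higher and 33.6% lower of all genes tested. Their median log2 fold change was -0.12, against -0.04 for all genes tested. The groups did not overlap for these 6 genes, nor for 62.3% of all genes tested. With so many genes called, the counts of oncofetal genes lie near the background, and what sets single genes apart is the size of the change. The log2 fold change of PEG10 was reached or passed downward by 16 genes (0.144%, PEG10 included), and that of LIN28B upward by 131 genes (1.18%, LIN28B included). In bulk RNA, fewer cells with a transcript and less transcript per cell cannot be told apart.

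**Figure D1:**
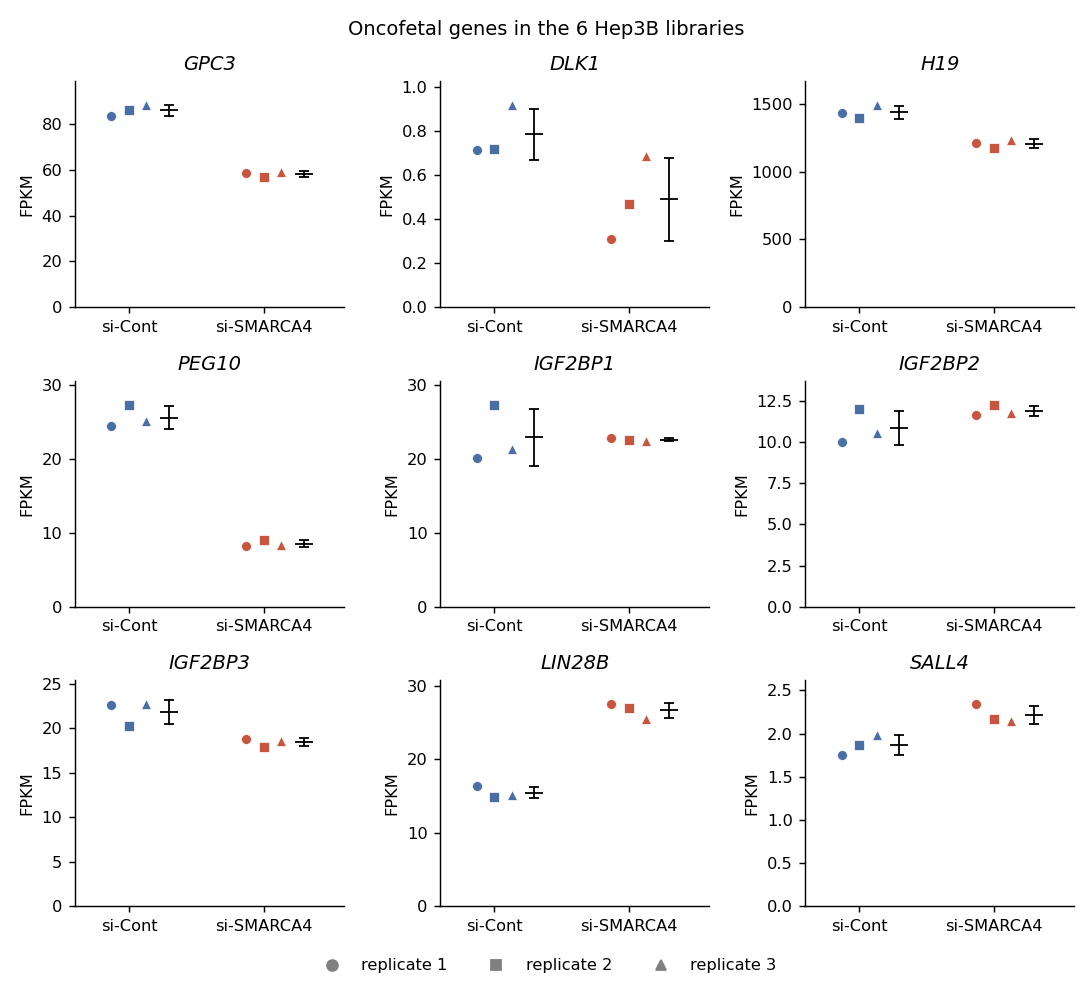
Level of each oncofetal gene in FPKM (linear vertical axes from 0, 1 panel a gene) in the 3 si-Cont and 3 si-SMARCA4 libraries; marker shapes are replicate numbers, and the bars beside them are mean and SD. PEG10, GPC3, H19, IGF2BP3 and DLK1 lie lower and LIN28B and SALL4 higher in si-SMARCA4 without overlap, while the si-Cont replicate 2 squares of IGF2BP1 and IGF2BP2 lie within or above the si-SMARCA4 range.

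The order of the levels changed in the middle of the scale. In si-Cont, H19 was the most abundant (mean 1441 FPKM), followed by GPC3 (85.9), PEG10 (25.6), IGF2BP1 (22.9), IGF2BP3 (21.9), LIN28B (15.5), IGF2BP2 (10.9), SALL4 (1.87) and DLK1 (0.784). PEG10 and IGF2BP1 overlapped in range, as did IGF2BP1 and IGF2BP3, and no other neighbours in that order did. In si-SMARCA4, LIN28B took place 3 at 26.7 FPKM and PEG10 place 7 at 8.56 FPKM, between IGF2BP2 (11.9) and SALL4 (2.21), and no neighbours in the order overlapped.

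Among the genes of the cell surface, GPC3 (ENSG00000147257, chromosome X) was the most abundant glypican, a family of proteoglycans held to the membrane by a lipid anchor. It stood at 83.5, 86.2 and 88.2 FPKM in si-Cont and at 58.6, 56.9 and 59.0 FPKM in si-SMARCA4. Every si-SMARCA4 library lay below every si-Cont library, and the 6 libraries held 4890 to 7521 reads of the gene. The log2 fold change was -0.55 (SE 0.05, limma adjusted p = 9.08e-06), an exact permutation test gave p = 0.1 (no lower value is possible with 3 libraries a group), and GPC3 was called lower under all 21 settings tried. Its neighbour on the chromosome, GPC4, stood at 1.84, 2.78 and 1.88 FPKM in si-Cont and at 2.40, 2.52 and 2.24 FPKM in si-SMARCA4. GPC4 overlapped between the groups through the high si-Cont replicate 2 and was not called (log2 fold change 0.11, limma adjusted p = 0.355); without that library it was called higher (0.24, limma adjusted p = 0.00296). Within each library the log2 ratio of GPC3 over GPC4 was 4.79 ± 0.23 in si-Cont and 4.13 ± 0.09 in si-SMARCA4 (SD, n = 3 each), without overlap (exact permutation p = 0.1).

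The other heparan sulfate genes were mostly lower as well. Of 21 genes listed as glypicans, syndecans and enzymes of heparan sulfate, 16 were tested, 2 were called higher and 11 lower. The shares over all genes tested were 22.4% higher and 33.6% lower. The median log2 fold change of the list was -0.38 against -0.04 for all genes tested. In the list, 1 gene was called higher without si-Cont replicate 3 or without si-SMARCA4 replicate 3. SDC1, a syndecan, fell from 32.9 ± 2.44 to 17.3 ± 0.253 FPKM (SD, n = 3 each) and SDC4, another syndecan, from 75.3 ± 6.48 to 47.7 ± 1.35 FPKM. GPC6, a glypican, fell to 62.7% of its si-Cont mean, at 11.9 ± 0.174 FPKM. HS6ST2, a sulfotransferase that adds sulfate to heparan sulfate chains, fell from 11.5 ± 0.911 to 5.92 ± 0.19 FPKM. Their log2 fold changes were -0.89, -0.65, -0.63 and -0.85 in that order (limma adjusted p between 7.41e-07 and 1.88e-05). A split of the list made after its values were seen put 5 lower and 1 higher among 7 tested glypican and syndecan core proteins, and 6 lower and 1 higher among 9 tested enzymes. The single core protein called higher was GPC5, at 2.66 ± 0.109 and 3.07 ± 0.164 FPKM (limma adjusted p = 0.0245), and its call was lost without si-Cont replicate 3 (0.0505) or si-SMARCA4 replicate 3 (0.111).

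**Figure D2:**
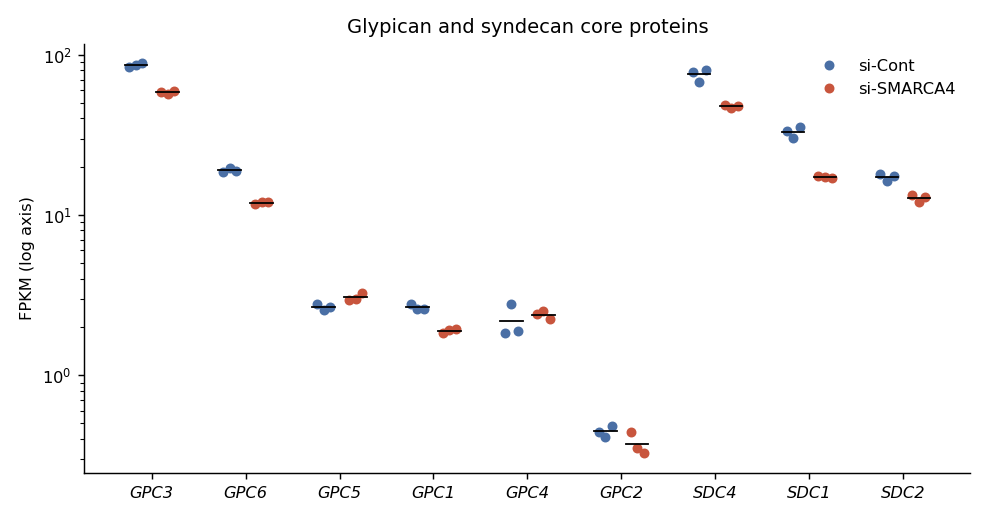
FPKM (logarithmic vertical axis) of glypican and syndecan core protein genes in each library, blue for si-Cont and red for si-SMARCA4, with black lines at the group means. GPC3, GPC6, GPC1, SDC4, SDC1 and SDC2 lie lower in all si-SMARCA4 libraries, GPC5 lies higher, and GPC4 and GPC2 overlap.

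DLK1 (ENSG00000185559, chromosome 14), a membrane protein of the Delta and Notch family that marks hepatoblasts, was near the limit of detection. It stood at 0.715, 0.719 and 0.916 FPKM in si-Cont (54, 48 and 66 reads) and at 0.310, 0.470 and 0.686 FPKM in si-SMARCA4 (24, 35 and 48 reads). The groups did not overlap, although the highest si-SMARCA4 library came close to the lowest si-Cont library (exact permutation p = 0.1). With the filter lowered to a mean of 0.1 FPKM, DLK1 was called lower (log2 fold change -0.27, limma adjusted p = 0.0433, with 24.6% of all genes tested called lower). With no filter it was not (limma adjusted p = 0.113). MEG3, the maternally expressed noncoding RNA of the same imprinted region, was at or below 0.0038 FPKM in every library.

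Of 22 genes listed for the NOTCH pathway, 15 were tested, 5 were called higher and 4 lower, with a median log2 fold change of -0.09. These counts stood beside 22.4% higher and 33.6% lower of all genes tested. DLL4, a NOTCH ligand, fell from 2.29 ± 0.198 to 0.861 ± 0.123 FPKM (log2 fold change -0.82), and RBPJ, the DNA-binding partner of activated NOTCH, from 10.2 ± 0.532 to 7.96 ± 0.0661 FPKM (-0.32). The si-SMARCA4 mean of DLL4 was under 1 FPKM, so DLL4 passed the filter through its si-Cont level. The same held for JAG2, also called lower, with means of 1.40 FPKM in si-Cont and 0.965 FPKM in si-SMARCA4. ADAM17, a protease that sheds membrane proteins, rose from 8.28 ± 0.604 to 14.6 ± 0.278 FPKM (0.75), and the receptor NOTCH2 from 2.22 ± 0.167 to 2.92 ± 0.0417 FPKM (0.29). The limma adjusted p of these 4 genes lay between 1.42e-06 and 0.000848. The other NOTCH receptors, named after their values were seen, were not called or not tested. NOTCH1 stood at 0.897, 1.88 and 1.06 FPKM in si-Cont and at 0.808, 0.762 and 0.868 FPKM in si-SMARCA4, without overlap, and was not called (log2 fold change -0.31, limma adjusted p = 0.0563). NOTCH3 stood at 0.652, 1.04 and 0.723 FPKM and at 0.339, 0.346 and 0.290 FPKM, also lower without overlap, but lay under the filter, as did NOTCH4 at 0.0458 to 0.0971 FPKM. Every si-SMARCA4 library held NOTCH1 under 1 FPKM, so it passed the filter only through its si-Cont level. Without si-Cont replicate 2, its highest library, NOTCH1 lay under the filter. Then 14 genes of the list were tested, with 5 called higher and 5 lower. The shares over all genes tested were then 23.7% higher and 40.5% lower.

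H19 (ENSG00000130600, chromosome 11) makes a long noncoding RNA of fetal liver and was by far the most abundant of the 9 genes, with 106352 to 133173 reads per library. It stood at 1437, 1395 and 1491 FPKM in si-Cont and at 1214, 1172 and 1238 FPKM in si-SMARCA4. The groups did not overlap, and the si-SMARCA4 mean was 83.8% of the si-Cont mean (log2 fold change -0.25, SE 0.07, limma adjusted p = 0.0116). The call was lost without si-SMARCA4 replicate 1 (limma adjusted p = 0.0520), without si-SMARCA4 replicate 2 (0.0687) and with no filter on low values (0.451), while the log2 fold change stayed between -0.28 and -0.12 over 21 settings.

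IGF2, the fetal growth factor gene next to H19 that is expressed from the paternal chromosome, stood at 25.1, 55.2 and 28.5 FPKM in si-Cont and at 35.9, 40.8 and 38.4 FPKM in si-SMARCA4. The si-Cont replicate 2 level was 2.06 times the mean of the other 2 si-Cont libraries and above every si-SMARCA4 library, whereas the other 2 lay below them all. With all 6 libraries IGF2 was not called (log2 fold change 0.16, SE 0.22, limma adjusted p = 0.547), and without si-Cont replicate 2 it was called higher (0.50, limma adjusted p = 5.83e-05). H19 itself was 0.953 times the mean of the other 2 in that library. The log2 ratio of H19 over IGF2 was 5.36 ± 0.63 in si-Cont and 4.94 ± 0.12 in si-SMARCA4 (SD, n = 3 each), with overlap (exact permutation p = 0.4), and the difference was -0.78 without si-Cont replicate 2.

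PEG10 (ENSG00000242265, chromosome 7), an imprinted gene that derives from a retrotransposon and encodes Gag- and Pol-like proteins, changed the most of the 9. It stood at 24.4, 27.4 and 25.1 FPKM in si-Cont, with 5238 to 5339 reads, and at 8.20, 9.07 and 8.41 FPKM in si-SMARCA4, with 1704 to 1957 reads. The lowest si-Cont library lay far above the highest si-SMARCA4 library. Its log2 fold change was -1.48 (SE 0.06, limma adjusted p = 2.40e-08), and it was called lower under all 21 settings, with log2 fold changes from -1.57 to -1.18.

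SGCE, which lies head to head with PEG10 and is paternally expressed as well, moved less. It stood at 10.2, 8.39 and 10.1 FPKM in si-Cont and at 7.86, 8.54 and 8.17 FPKM in si-SMARCA4. SGCE was called lower (log2 fold change -0.20, limma adjusted p = 0.0310), although its groups overlapped through si-Cont replicate 2, and the call was lost without any 1 of si-Cont replicates 1 and 3 and si-SMARCA4 replicates 1 and 3 (limma adjusted p from 0.0722 to 0.109) and with median-ratio or upper-quartile scaling (0.0505 and 0.0638). The log2 ratio of PEG10 over SGCE was 1.34 ± 0.22 in the control libraries and 0.06 ± 0.02 after SMARCA4 siRNA (SD, n = 3 each), without overlap (exact permutation p = 0.1). The annotated genes overlap, and no source used here says whether counting used the strand, so reads in the overlap cannot be told apart.

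Of 29 listed genes of imprinted regions, 16 were tested, 3 were called higher and 6 lower, with a median log2 fold change of -0.07. The shares over all genes tested were 22.4% higher and 33.6% lower. Without si-Cont replicate 2 the counts were 6 and 9, beside 23.7% higher and 40.5% lower of all genes tested. CDKN1C, a maternally expressed inhibitor of the cell cycle in the same imprinted domain cluster as H19, fell about as far as PEG10, from 23.7 ± 1.43 to 7.88 ± 0.644 FPKM (log2 fold change -1.47, limma adjusted p = 4.32e-08). SNRPN, which encodes a splicing protein, fell from 10.7 ± 1.48 to 7.95 ± 1.02 FPKM, and MEST, a hydrolase gene expressed from the paternal chromosome, from 15.7 ± 1.46 to 12.8 ± 0.214 FPKM. CASD1, a sialic acid O-acetyltransferase gene in the PEG10 region, rose from 3.20 ± 0.311 to 4.81 ± 0.158 FPKM (log2 fold change 0.47, limma adjusted p = 6.27e-05).

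Among the RNA-binding proteins, LIN28B (ENSG00000187772, chromosome 6) rose. It stood at 16.4, 14.9 and 15.2 FPKM in si-Cont, with 2386 to 2970 reads, and at 27.5, 27.0 and 25.6 FPKM in si-SMARCA4, with 4300 to 5119 reads. All si-SMARCA4 libraries lay above all si-Cont libraries by a wide margin. The log2 fold change was 0.75 (SE 0.05, limma adjusted p = 1.28e-06), from 0.63 to 0.84 over 21 settings, with the call kept in each. LIN28A, its paralog, stayed between 0.0378 and 0.0844 FPKM in all libraries and was not tested.

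The let-7 microRNAs that LIN28B holds back share the bases through which they find their targets. The mature sequences of 4 of the 9 family members found in RefSeq (GRCh38.p14) are shown 5′ to 3′ with the seed, bases 2 to 8, in capitals; all 9 have the same seed, GAGGUAG. Let-7a comes from 3 loci, 1 of which is given.
let-7a-5p, chr9:94175962-94175983, + strand: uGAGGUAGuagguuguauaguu
let-7b-5p, chr22:46113691-46113712, + strand: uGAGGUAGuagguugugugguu
let-7g-5p, chr3:52268336-52268357, - strand: uGAGGUAGuaguuuguacaguu
miR-98-5p, chrX:53556299-53556320, - strand: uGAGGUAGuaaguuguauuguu

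The letters that pair with this seed, followed by an A (CTACCTCA), were searched on the transcript strand of the longest 3′ UTR of each gene in GENCODE v29 (GRCh38). They were found in LIN28B, SALL4 and all 3 IGF2BP genes, that is in 5 of the 8 protein-coding oncofetal genes, and not in GPC3, DLK1 or PEG10. Of 10351 tested genes with a 3′ UTR of at least 50 bases, 536 (5.18%) hold them, and 1331 (12.9%) hold the 7 letters without the final A, a search that includes the former. The UTRs differ in length, from 379 bases in GPC3 to 6206 bases in IGF2BP1. One match per gene is shown, because these are the oncofetal genes whose 3′ UTR carries the letters. Each line is 30 bases of the transcript strand, 5′ to 3′, with the match in capitals.
LIN28B, chr6:105078816-105078845, + strand: ggttgcaaagtCTACCTCAtgcaagtatag
IGF2BP1, chr17:49051065-49051094, + strand: tgcgaagtaaaCTACCTCAaggtatgaagt
IGF2BP2, chr3:185644209-185644238, - strand: cacagaagaagCTACCTCAggtgtttttac
IGF2BP3, chr7:23311784-23311813, - strand: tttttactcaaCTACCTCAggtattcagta
SALL4, chr20:51782912-51782941, - strand: ctttaatttatCTACCTCAtttatttttta

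LIN28B holds 2 such matches and IGF2BP1 holds 3, and the other 3 genes hold 1 each. The 5 carriers did not move together, since LIN28B and SALL4 rose, IGF2BP3 fell, and IGF2BP1 and IGF2BP2 did not pass the test. Of all 536 carriers, 24.3% were called higher and 30.8% lower, against 22.8% and 33.9% of all genes searched, and their median log2 fold change was -0.01 against -0.04. A match is a description of the letters and not a tested site. None of the 8 coding genes holds CTGTCCA or TGTCCAA in that UTR. This pair of sequences was picked from these data because their carriers were often lower in si-SMARCA4. Of the carriers, 46.0% and 43.8% were called lower and 15.7% and 17.5% higher. Of the genes searched, 16.4% and 12.1% hold them. Since the pair was picked from these same values, its absence from the 8 genes was not a test.

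The 12 rows of the table for let-7 and miR-98 precursor genes were all listed at 0, so mature let-7 was not measured. MIRLET7DHG, a host transcript of let-7 precursors, stood at 3.17, 2.94 and 3.23 FPKM in si-Cont and at 3.68, 3.82 and 4.61 FPKM in si-SMARCA4. LINC00478, another host transcript, stood at 0.948, 0.904 and 0.855 FPKM and at 1.21, 1.45 and 1.17 FPKM. With every si-Cont library under 1 FPKM, LINC00478 passed the filter only through its si-SMARCA4 level. Both host transcripts were called higher without overlap (limma adjusted p = 0.00444 and 0.00517); they were named after their values were seen.

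Of 34 genes listed around let-7, 33 were tested, 10 were called higher and 9 lower, beside 22.4% higher and 33.6% lower of all genes tested. The median log2 fold change of the list was 0.04. It held let-7 pathway members and targets, and also genes of insulin and IGF signalling such as IGFBP1. Whether let-7 acts on IGFBP1 was not tested. IGFBP1, whose secreted protein binds IGF2 and IGF1, rose from 3.05 ± 0.265 to 18.1 ± 2.44 FPKM (log2 fold change 2.24), and PRTG, a receptor of the immunoglobulin family, from 0.615 ± 0.0488 to 1.43 ± 0.0917 FPKM (0.59). PRTG lay under 1 FPKM in every si-Cont library and passed the filter only through its si-SMARCA4 level. ARID3A, a DNA-binding factor of fetal blood development, fell from 22.5 ± 0.736 to 10.8 ± 0.41 FPKM (-0.997), and the cell cycle kinase CDK6 from 28.3 ± 1.55 to 17.7 ± 0.732 FPKM (-0.65). The limma adjusted p of these 4 genes lay between 1.89e-08 and 1.22e-05. HMGA2, a chromatin protein of the embryo and a classical let-7 target, fell from 7.83 ± 0.222 to 6.36 ± 0.259 FPKM (-0.26, limma adjusted p = 0.000826). TRIM71, a ubiquitin ligase of the same circuit, fell from 8.93 ± 0.381 to 6.83 ± 0.139 FPKM (-0.34, limma adjusted p = 0.000137). HMGA1 stood at 72.5 ± 5.57 and 73.2 ± 3.33 FPKM and was not called (limma adjusted p = 0.861). Without si-SMARCA4 replicate 1 the number of the list called higher was 6.

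The 3 IGF2BP genes, whose proteins share the same RNA-binding domains, differed from each other. IGF2BP3 (ENSG00000136231, chromosome 7) stood at 22.6, 20.3 and 22.7 FPKM in si-Cont and at 18.8, 18.0 and 18.6 FPKM in si-SMARCA4. The groups did not overlap, and IGF2BP3 was called lower under all 21 settings (log2 fold change -0.23, SE 0.06, limma adjusted p = 0.00466). Its reads and those of MALSU1, which overlaps it in the annotation, cannot be told apart where they overlap; MALSU1 was not called (log2 fold change -0.07, limma adjusted p = 0.428) except without si-Cont replicate 2 (-0.14, limma adjusted p = 0.0215).

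IGF2BP1 (ENSG00000159217, chromosome 17) stood at 20.1, 27.3 and 21.4 FPKM in si-Cont and at 22.8, 22.6 and 22.5 FPKM in si-SMARCA4. The si-SMARCA4 libraries lay between the high si-Cont replicate 2 and the lower other 2. IGF2BP1 was not called (log2 fold change -0.01, SE 0.09, limma adjusted p = 0.951), and the sign of this value changed under median-ratio scaling (0.04). Without si-Cont replicate 2 it was called higher (log2 fold change 0.12, limma adjusted p = 0.0195).

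IGF2BP2 (ENSG00000073792, chromosome 3) stood at 10.0, 12.0 and 10.6 FPKM in si-Cont and at 11.7, 12.3 and 11.8 FPKM in si-SMARCA4. The groups overlapped, again through si-Cont replicate 2. The log2 fold change was 0.12 (SE 0.06, limma adjusted p = 0.121). With the replicate number as a block, in which libraries with the same number are paired, IGF2BP2 was called higher (limma adjusted p = 0.0463, with 24.4% of all genes called higher and 36.4% lower), as it was with limma voom on the recovered reads (log2 fold change 0.19, adjusted p = 0.0479) and without si-Cont replicate 2 (log2 fold change 0.19, limma adjusted p = 0.00241). Without that library 4 of the 8 oncofetal genes were called higher and 4 lower, with 23.7% higher and 40.5% lower of all genes tested.

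**Figure D3:**
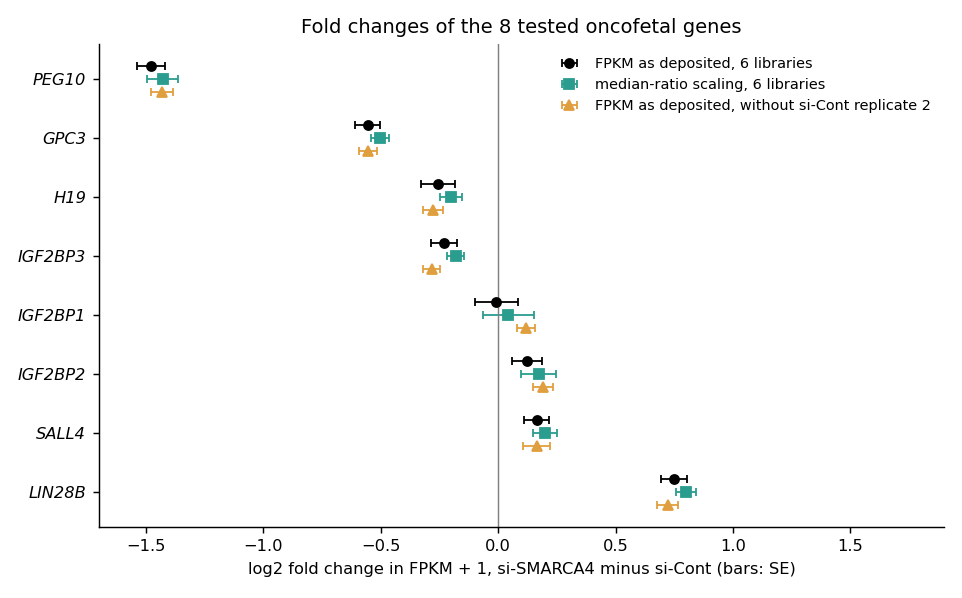
Log2 fold change of FPKM + 1 (horizontal axis, si-SMARCA4 minus si-Cont, bars SE) of the 8 tested oncofetal genes under 3 settings. Scaling shifts all genes slightly to the right, and leaving out si-Cont replicate 2 takes IGF2BP1 from -0.01 to 0.12 and IGF2BP2 from 0.12 to 0.19, while PEG10, GPC3 and LIN28B stay far from 0.

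The make-up of the family, which does not depend on library scaling, was taken as the share of each gene in the summed FPKM of the 3. The share of IGF2BP2 was 19.05%, 20.2% and 19.4% in si-Cont and 21.9%, 23.3% and 22.3% in si-SMARCA4. It was higher in every si-SMARCA4 library (exact permutation p = 0.1), by 2.83, 3.07 and 2.99 percentage points between libraries with the same replicate number. The share of IGF2BP3 was 39.5% ± 4.74 and 34.8% ± 0.715 (SD, n = 3 each), with overlap through si-Cont replicate 2 at 34.0% (exact permutation p = 0.3); without that library the difference was -7.35 percentage points. That of IGF2BP1 was 41.0% ± 4.16 and 42.7% ± 0.14, with overlap (exact permutation p = 0.4), and 4.06 percentage points higher without that library. The summed level was 55.7 ± 3.56 and 53.0 ± 0.254 FPKM, also with overlap.

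**Figure D4:**
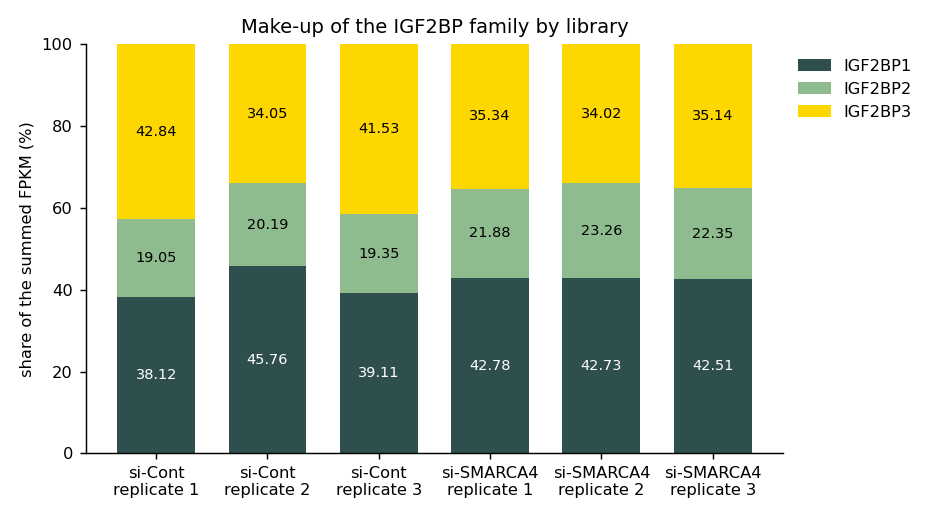
Share of IGF2BP1, IGF2BP2 and IGF2BP3 in their summed FPKM (%, vertical axis) in each of the 6 libraries. The IGF2BP2 share lies at 19.05% to 20.2% in the control libraries and at 21.9% to 23.3% after SMARCA4 siRNA, and si-Cont replicate 2 differs from the other si-Cont libraries in its high IGF2BP1 and low IGF2BP3 share.

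Of 25 genes listed as RNA partners and clients of the IGF2BP proteins, 23 were tested, 2 were called higher and 11 lower, with a median log2 fold change of -0.13. These counts stood beside 22.4% higher and 33.6% lower of all genes tested. FSCN1, an actin-bundling protein, fell from 31.0 ± 1.9 to 13.0 ± 0.439 FPKM (log2 fold change -1.19), and the transcription factor SOX4 from 82.7 ± 3.61 to 58.3 ± 0.655 FPKM (-0.50). WTAP, a subunit of the RNA methyltransferase that writes N6-methyladenosine, fell from 11.2 ± 0.883 to 8.71 ± 0.443 FPKM (-0.32). YBX1, an mRNA-binding protein, fell from 203 ± 13.2 to 164 ± 5.19 FPKM (-0.31). The limma adjusted p of these 4 genes lay between 7.20e-08 and 0.00255. After quantile normalization 5 of the list were called higher and 6 lower. Without si-SMARCA4 replicate 2 the number called lower was 7, and the number called higher was 4 without si-Cont replicate 2 and 1 without si-Cont replicate 3 or any 1 si-SMARCA4 library.

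SALL4 (ENSG00000101115, chromosome 20) was low, with 221 to 321 reads per library. It stood at 1.76, 1.87 and 1.99 FPKM in si-Cont and at 2.34, 2.16 and 2.14 FPKM in si-SMARCA4. The groups did not overlap, with the highest si-Cont library at 1.99 and the lowest si-SMARCA4 library at 2.14 FPKM. The log2 fold change was 0.16 (SE 0.05, limma adjusted p = 0.0232). The call was lost without si-Cont replicate 1 (limma adjusted p = 0.0804), without si-SMARCA4 replicate 1 (0.0996) and with no filter on low values (0.0680).

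Of 17 other SALL family and pluripotency genes, 5 were tested, and 1 was called higher and 1 lower (median log2 fold change 0.06). The shares over all genes tested were 22.4% higher and 33.6% lower. KLF4, a zinc finger factor, rose from 0.857 ± 0.0723 to 2.37 ± 0.242 FPKM (log2 fold change 0.86, limma adjusted p = 1.54e-06). All si-Cont libraries held KLF4 under 1 FPKM, so it passed the filter only through its si-SMARCA4 level. SALL2, a paralog of SALL4, fell from 8.86 ± 0.533 to 5.80 ± 0.186 FPKM (-0.54, limma adjusted p = 1.18e-05). The rise of SALL4 thus stood beside a fall of its more abundant paralog.

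Other fetal liver genes were set beside the 9. Of 25 listed, 16 were tested, 4 were called higher and 7 lower (median log2 fold change -0.11), beside 22.4% and 33.6% of all genes tested. In the list, 2 were called higher without si-Cont replicate 3 or any 1 si-SMARCA4 library. GOLM1, among the 4 called higher, lay under 1 FPKM in every si-Cont library (0.860, 0.932 and 0.834). It passed the filter only through its si-SMARCA4 level (0.978, 1.23 and 1.21 FPKM). AFP, the fetal serum protein used as a tumour marker, stood at 218, 198 and 223 FPKM in si-Cont and at 114, 117 and 116 FPKM in si-SMARCA4. It fell without overlap (log2 fold change -0.87, limma adjusted p = 1.20e-06). DUSP9, a phosphatase of MAP kinases, fell from 11.0 ± 0.541 to 7.59 ± 0.209 FPKM, and MDK, a heparin-binding growth factor, from 84.2 ± 6.74 to 61.0 ± 2.31 FPKM. TSPAN8, a tetraspanin of the cell surface, rose from 6.18 ± 0.735 to 10.2 ± 1.16 FPKM (0.64, limma adjusted p = 0.000119).

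Of 22 listed repressors and regulators of AFP, H19 and GPC3, 19 were tested, 4 were called higher, 9 lower and the rest neither (median log2 fold change -0.16), beside 22.4% higher and 33.6% lower of all genes tested. ZHX2, which represses AFP, H19 and GPC3 after birth in mouse liver, rose from 6.20 ± 0.332 to 7.33 ± 0.308 FPKM (log2 fold change 0.21, limma adjusted p = 0.00565). ZBTB20, a repressor of AFP in mouse liver, rose from 2.89 ± 0.0697 to 3.67 ± 0.136 FPKM (0.26, limma adjusted p = 0.000703). Among the activators, HNF4A, a nuclear receptor of hepatocytes, fell from 40.6 ± 0.56 to 26.0 ± 0.997 FPKM (-0.62), and FOXA1, a pioneer factor, from 14.5 ± 0.451 to 11.0 ± 0.303 FPKM (-0.37). NFYA, a subunit of the factor that binds CCAAT boxes, fell from 36.0 ± 3.69 to 27.8 ± 0.759 FPKM (-0.36). The limma adjusted p of these 3 lay between 2.94e-06 and 0.00129, and whether any of these changes bears on the oncofetal genes was not tested.

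The nearest tested gene on each side of every oncofetal gene was also read, a choice made after the data were seen and by position alone. Of these 18 neighbours 0 were called higher, 6 lower and 12 neither, beside 22.4% and 33.6% of all genes tested. The calls of 3 of the 6, SGCE, SENP2 and TRA2B, were lost when single libraries were left out. The neighbours of LIN28B were HACE1 (log2 fold change -0.02) and BVES (-0.04), neither called (limma adjusted p = 0.778 and 0.527), so neither shared its rise. Those of GPC3, GPC4 and PHF6 (-0.10, limma adjusted p = 0.0875), were not called either. Next to IGF2BP1, ZNF652 fell from 3.82 to 1.99 FPKM (-0.69, limma adjusted p = 6.94e-06), although IGF2BP1 was not called. MRPL23-AS1 beside H19 fell from 2.54 to 1.57 FPKM (-0.46, limma adjusted p = 0.000433); as an antisense gene its reads may include those of its partner. None of the neighbours named here changed as far as PEG10 did.

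**Figure D5:**
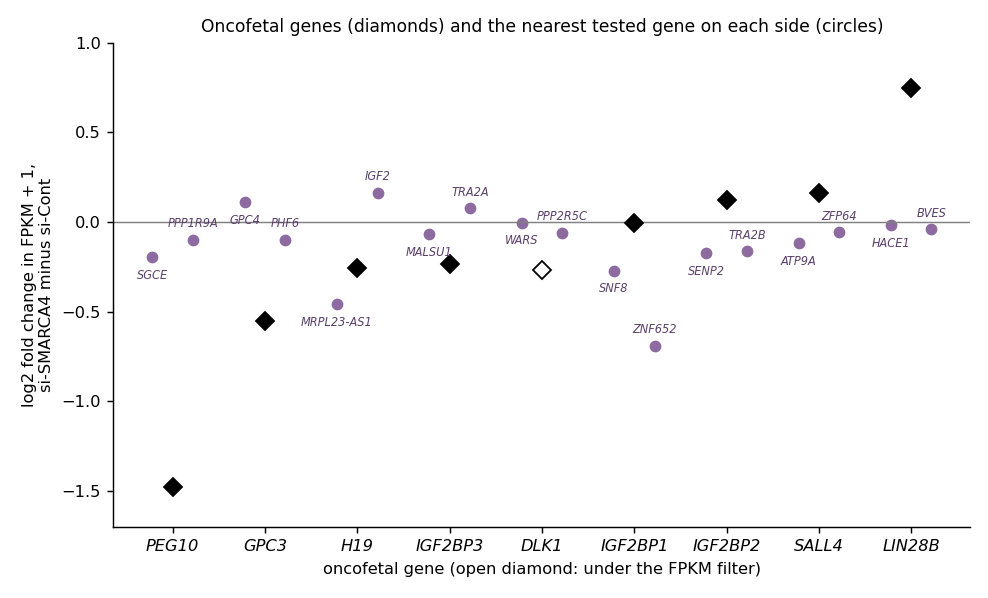
Log2 fold change of FPKM + 1 (vertical axis) of the oncofetal genes (diamonds, open for DLK1) and of the nearest tested gene at lower and at higher coordinates (circles, left and right). Neighbours lie between -0.69 (ZNF652) and 0.16 (IGF2), while PEG10 lies at -1.48 and LIN28B at 0.75.

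The genes whose values over the 6 libraries were most like each called gene were found as the smallest root mean square difference of centred log2(FPKM + 1). They were MTR and CLSTN3 for GPC3 (differences 0.01 for both), SLC1A5 and PINK1-AS for H19 (0.01 for both) and IMMT and RPL29 for IGF2BP3 (0.0037 and 0.01). For LIN28B they were ARL1 and HDAC9 (0.02 for both), and for SALL4 CD47 and RSBN1L-AS1 (0.0057 and 0.02). PEG10 had the least close companions, ZNF664 and KIF1A (0.07 and 0.08), with log2 fold changes of -1.54 and -1.34. The measure rests on 6 libraries of 2 groups and so largely follows the size of the change. Only 16 of the genes tested, PEG10 included, fell as far as PEG10, which left few that could lie close to it.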

How the data were processed

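Total RNA of Hep3B cells was sequenced, with 3 si-Cont and 3 si-SMARCA4 libraries grouped by sample title. The authors deposited FPKM values for 57773 genes, and the genome build was hg19 per the submitters' processing notes; neither headers nor labels name the aligner, counting program, annotation or strand setting. Values of all 25119 genes with a mean above 0 were whole multiples of 1 read's worth (relative tolerance 1e-08), which gave read numbers of 19084308 to 22719014 per library over genes; these cover counting error only.

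Rows with a mean of at least 1 FPKM (11123) were compared on log2(FPKM + 1), a pseudocount of 1 that understates changes of low genes, with limma 3.58.1 in R 4.3.3 (trended moderated statistics, two-sided, Benjamini-Hochberg over all rows, threshold 0.05) and, for single values, an exact two-sided permutation test. The procedure was also run on simulated data, which held no outlying library and so do not bear on the effect of si-Cont replicate 2. The row with the highest mean stood for a symbol. Libraries with the same replicate number in the titles correlated in their deviations from the group means (0.215, 0.181 and 0.162), so the numbers were taken to pair the libraries. The main fit and the exact permutation tests did not use this pairing, and a block for the replicate number was tried as an alternative. Limma voom on the recovered reads called 3313 genes higher and 3354 lower. Other alternatives were pseudocounts of 0.1 and 5, other filters, 3 scalings, other limma settings, summed rows and leaving out each library. Median-ratio scaling without si-Cont replicate 2 was added after seeing the data.

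The 9 genes and the 13 lists around them (229 symbols) were chosen with earlier results of these data known. Named genes were the 9, SMARCA4, 11 partner genes, at most 4 called genes with the largest change per list, and the 2 most similar genes per called gene; not every gene this rule names is reported here. Sequence matches used GENCODE v29 and RefSeq on GRCh38, and whether these cells use the annotated 3′ UTR was not examined. Figures were drawn with matplotlib 3.10.9, and other steps used Python 3.11.15 with pandas 2.3.3, numpy 2.4.6 and scipy 1.17.1.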

Additional observations from a re-analysis of the deposited data

How the results depend on the processing

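GPC3, PEG10, IGF2BP3 and LIN28B kept their direction and their call under all 21 settings tried. H19 was called under 18 of 21 and SALL4 under 17 of 20. The scaling moved the split of all calls from 2494 higher and 3733 lower to 3425 and 3137 (upper-quartile) and 3346 and 3278 (quantile), with the oncofetal counts unchanged at 2 and 4. With a mean of at least 5 FPKM, 1387 genes were called higher and 2296 lower, and 1 oncofetal gene was called higher, as also with no filter, where H19 and SALL4 lost their calls. Leaving out 1 library at a time gave 2026 to 2635 genes higher and 3073 to 4505 lower, and 1 to 4 oncofetal genes higher and 3 to 4 lower. The log2 fold change of IGF2BP1, -0.01 as reported, ran from -0.092 to 0.12 when 1 library was left out. It turned to 0.12 without si-Cont replicate 2 and to 0.20 with median-ratio scaling besides, when 4 oncofetal genes were called higher; the cause was not tested. With the replicate block 3 oncofetal genes were called higher and 4 lower; IGF2BP2 (adjusted p = 0.0463) was the only one of the 8 tested whose call the block changed. Of 216 recomputed list counts, 31 moved by more than 1.5 times. Among 76 other named genes, 41 of 1492 recomputed values lost a call, 7 gained one and 0 turned their direction with a call, in 16 genes. Depth limits DLK1 (24 to 66 reads) most.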
